A study of Mus musculus with 8 samples.

Results

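The genes described here are the numbered mouse zinc finger genes that sorted thymocytes express well and that lie outside 2 large clusters of closely related copies. A gene was included when it was protein-coding, had a GENCODE M21 symbol made of Zfp and a number only, and averaged 5 counts per M reads in genes (CPM) or more over the 8 libraries. Genes between 145 and 148 Mb of chromosome 4 and between 174.5 and 178.5 Mb of chromosome 2 (GRCm38) were left out. This gave 223 genes of 365 protein-coding genes with such a symbol, among 53465 gene rows. These genes were thus selected on their mean CPM, so their levels are a description, while the strain difference was not used by the rule.

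The RNA came from thymocytes of NOD/ShiLtJ mice, an inbred line prone to spontaneous autoimmune diabetes, and of C57BL/6J mice, an inbred strain often used as a standard. In both strains the thymus was made into a cell suspension, live CD4+ CD8+ cells (double-positive cells, the stage that rearranges the T cell receptor alpha chain) were sorted, and stranded libraries were made from a small input of total RNA. Both groups were untreated as far as the labels say, and the sources used here give no age, sex or number of animals. The 4 libraries of a strain are titled with B and T numbers whose meaning is not stated. Counts of the libraries with the same B number were added up within each strain, so that there were 2 samples per strain, called samples 1 and 2. No label says that they came from separate animals, so the spread behind each p-value may be a technical one.

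Most proteins of this family bind DNA through rows of C2H2 fingers, in which a pair of cysteines and a pair of histidines hold a zinc ion and the residues between them read out bases. Many also carry a KRAB box, which recruits the corepressor Trim28 and, through it, enzymes that silence chromatin, often at transposable elements. KRAB zinc finger genes tend to sit side by side on the chromosome, as copies of one another. A minority of numbered Zfp genes encode other proteins, such as Zfp36 (tristetraprolin), whose CCCH fingers bind AU-rich mRNA and speed its decay.

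Depth was higher in NOD/ShiLtJ, where a library held 23.5 to 30.4 M reads in genes, than in C57BL/6J, where it held 8.53 to 15.7 M. The sorted stage was visible in both strains: the 8 double-positive thymocyte markers summed to 12461 and 11185 CPM in NOD/ShiLtJ samples and to 15260 and 14322 CPM in C57BL/6J samples, and none was called by edgeR or by DESeq2 (1 higher and 2 lower at an unadjusted p under 0.05). Rag1 had the highest level of the 8, at 5983 ± 926 CPM in NOD/ShiLtJ and 8841 ± 354 CPM in C57BL/6J (SD, n = 2 each). The log2 fold change (NOD/ShiLtJ over C57BL/6J) was positive in 5 markers and negative in 3, with Rag1 among the 3, so the sums do not describe each marker. Over the 8 libraries, the strains did not overlap in 4 of the 8 markers with NOD/ShiLtJ above, against 9.43% of all tested genes. They also did not overlap in 3 of the 8 with NOD/ShiLtJ below, against 7.17% of all tested genes. In each direction, the strains thus separated in a larger share of these markers than of all tested genes, a difference that was not tested. NOD/ShiLtJ sample 1 stood apart from the other samples, since 11 cell cycle genes, a list chosen after the values were seen, summed to 1150 and 4860 CPM in NOD/ShiLtJ samples 1 and 2 and to 3901 and 4613 CPM in C57BL/6J samples 1 and 2. Markers of other cells were low. The 3 myeloid markers (Lyz2, Csf1r and Itgax) summed to 11.6 and 16.2 CPM in NOD/ShiLtJ samples, against 5.17 and 4.21 CPM in C57BL/6J samples, and Csf1r was called higher (edgeR adjusted p = 0.0233). The 3 B cell markers summed to 1.61 and 1.76 CPM in NOD/ShiLtJ, against 0.798 and 0.908 CPM in C57BL/6J, and the 2 natural killer markers to 1.19 and 1.24 CPM in NOD/ShiLtJ, against 0.126 and 0.495 CPM in C57BL/6J. The 3 epithelial markers summed to 7.56 and 7.69 CPM in NOD/ShiLtJ, against 6.30 and 4.29 CPM in C57BL/6J, and the 2 erythroid markers to 3.30 and 8.45 CPM in NOD/ShiLtJ, against 4.16 and 1.16 CPM in C57BL/6J. No defining marker had a mean of 0, and the part of these cells in the results that follow was not tested.

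Of the 223 zinc finger genes, 3 were higher in NOD/ShiLtJ (Zfp30, Zfp27 and Zfp799) and 0 were lower, at a Benjamini-Hochberg adjusted p under 0.05 in edgeR's quasi-likelihood test over all genes. One zinc finger of each is shown, because these are the genes that the strain comparison called. The sequences are the sense strand of the coding sequence in the GENCODE M21 reference (GRCm38), each one the finger with its linker. Capitals mark the codons of the cysteine pair, then those of the histidine pair. Zfp30, finger 1 of 12, lies at chr7:29792644-29792727 on the plus strand. Zfp27, finger 5 of 21, lies at chr7:29895501-29895584 on the minus strand. Zfp799, finger 2 of 16, lies at chr17:32820535-32820618 on the minus strand.
Zfp30: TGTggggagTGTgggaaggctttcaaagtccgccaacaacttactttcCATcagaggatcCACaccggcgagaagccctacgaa
Zfp27: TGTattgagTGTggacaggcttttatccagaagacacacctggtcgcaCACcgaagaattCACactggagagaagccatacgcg
Zfp799: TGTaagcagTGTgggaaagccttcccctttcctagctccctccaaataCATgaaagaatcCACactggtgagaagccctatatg

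Across all 17291 genes tested, 3.68% were called, 1.91% higher and 1.78% lower in NOD/ShiLtJ. Of the other protein-coding genes at 5 CPM or more, 2.82% were called. The share of zinc finger genes called, 1.35%, rests on 3 genes, and its difference from these shares was not tested. At an unadjusted p under 0.05, 11 zinc finger genes were higher and 4 lower, and DESeq2 called 4 higher and 0 lower. The median log2 fold change (NOD/ShiLtJ over C57BL/6J) was 0.11, with quartiles of -0.04 and 0.28, against 0.02 for all tested genes. The log2 fold change was positive in 155 zinc finger genes and negative in 68, against 9043 and 8248 of all tested genes. Signs were also uneven between samples of the same strain. The log2 ratio of sample 1 over sample 2 was positive in 149 zinc finger genes in NOD/ShiLtJ and in 52 in C57BL/6J. Whether the strain split exceeds such splits within a strain was not tested. The median moved with the samples. Over the 4 pairs of a NOD/ShiLtJ and a C57BL/6J sample, the median log2 ratio ran from 0.002 to 0.325, with an SD of 0.137. These pairs reuse the same samples, 1 per strain at a time, so this SD is not the error of the fitted median. Whether the median differs from 0 was not tested. Without NOD/ShiLtJ sample 1, whose cell cycle sum was low, the same 3 genes were called higher and 0 lower, and the median was 0.03. Differences were small in general: 210 genes (94.2%) lay within 1.5-fold, as did 74.9% of all tested genes and 91.8% of the other protein-coding genes at 5 CPM or more. The 8 libraries separated fully by strain in 28 zinc finger genes with NOD/ShiLtJ above (12.6%, against 9.43% of all tested genes) and in 5 with NOD/ShiLtJ below (2.24%, against 7.17%). In these sorted-cell samples, fewer cells of a type and less RNA per cell cannot be told apart.

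**Figure D1:**
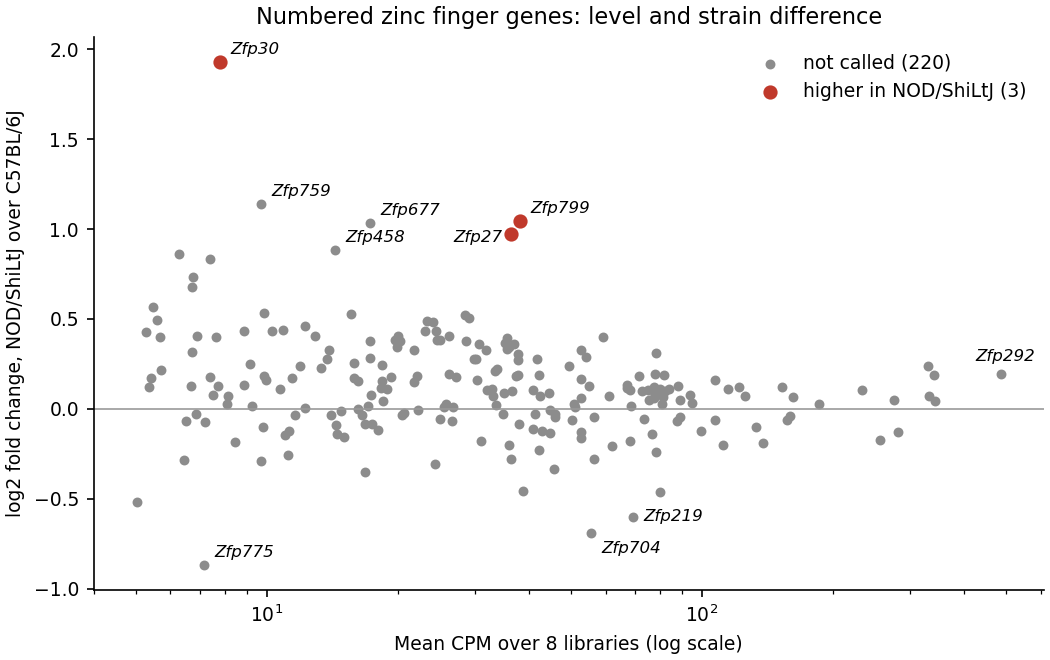
Log2 fold change (NOD/ShiLtJ over C57BL/6J, vertical axis) against mean CPM over the 8 libraries (log scale, horizontal axis), 1 point per zinc finger gene. The 3 red points are the genes called higher in NOD/ShiLtJ, and 210 of the 223 genes lie within 1.5-fold.

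Zfp30 had the largest difference of the 223 genes. It encodes a KRAB zinc finger protein that is known in the mouse airway as a candidate regulator of the neutrophil chemokine Cxcl1, and lies at chr7:29783998-29794702 on the plus strand. Its libraries stood at 11.9, 12.5, 10.96 and 14.3 CPM in NOD/ShiLtJ, against 2.69, 2.38, 3.76 and 3.75 CPM in C57BL/6J. Every NOD/ShiLtJ library was thus above every C57BL/6J library. Summed samples averaged 12.4 ± 0.194 CPM in NOD/ShiLtJ and 3.16 ± 0.844 CPM in C57BL/6J (SD, n = 2 each). The log2 fold change was 1.93 ± 0.32 (SE; edgeR adjusted p = 0.0107). Zfp30 was above 5 CPM in NOD/ShiLtJ only, and so entered the group through the strain in which it is high. Without C57BL/6J sample 1 it was no longer called (log2 fold change 1.72, edgeR adjusted p = 0.106).

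Zfp27, at chr7:29893333-29906572 on the minus strand, encodes a KRAB protein with 21 fingers, the most among the called genes. Its libraries stood at 55.7, 50.8, 43.8 and 44.4 CPM in NOD/ShiLtJ, against 21.04, 27.0, 24.5 and 24.6 CPM in C57BL/6J. The strains did not overlap. The log2 fold change was 0.97 ± 0.19 (SE; edgeR adjusted p = 0.0253), from 48.6 ± 6.50 CPM in NOD/ShiLtJ samples and 24.04 ± 0.675 CPM in C57BL/6J samples (SD, n = 2 each). The call was lost without C57BL/6J sample 1 (edgeR adjusted p = 0.189), without C57BL/6J sample 2 (0.160) and in the libraries with T number 2 alone (0.101), with a log2 fold change of 0.88 to 0.99 in these 3 fits.

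Zfp799, at chr17:32815449-32830261 on the minus strand, encodes a KRAB protein with 16 fingers. Its libraries stood at 58.0, 52.2, 56.0 and 40.2 CPM in NOD/ShiLtJ, against 18.5, 22.9, 28.5 and 29.4 CPM in C57BL/6J. Again the strains did not overlap, and the lowest NOD/ShiLtJ library was the T number 2 library of sample 2. The log2 fold change was 1.04 ± 0.21 (SE; edgeR adjusted p = 0.0253), from 52.0 ± 4.43 CPM in NOD/ShiLtJ samples and 24.6 ± 5.97 CPM in C57BL/6J samples (SD, n = 2 each). It was no longer called without C57BL/6J sample 1 (0.85, edgeR adjusted p = 0.264) or in the libraries with T number 2 alone (0.82, edgeR adjusted p = 0.180).

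The genes next in the order of p did not pass the test, and are named here after their values were seen. Zfp677 on chromosome 17 averaged 23.1 ± 3.52 CPM in NOD/ShiLtJ samples and 10.9 ± 0.812 CPM in C57BL/6J samples (SD, n = 2 each), a log2 fold change of 1.03 ± 0.24 (SE; edgeR adjusted p = 0.0551). DESeq2 called Zfp677 as well. On chromosome 13, Zfp458 had 21.6 and 15.2 CPM in NOD/ShiLtJ samples, against 8.44 and 10.9 CPM in C57BL/6J samples (0.88 ± 0.28, edgeR adjusted p = 0.154). Zfp759, also on chromosome 13, had 17.8 and 8.84 CPM in NOD/ShiLtJ samples, against 5.63 and 6.15 CPM in C57BL/6J samples (1.14 ± 0.37, edgeR adjusted p = 0.171), and its NOD/ShiLtJ samples were far apart. Zfp458 and Zfp759 encode KRAB proteins with 20 and 19 fingers. In the other direction, Zfp219 on chromosome 14 had 50.4 and 62.4 CPM in NOD/ShiLtJ samples, against 90.2 and 75.2 CPM in C57BL/6J samples (-0.60 ± 0.19, edgeR adjusted p = 0.170). Zfp775 on chromosome 6 had 5.25 and 5.09 CPM in NOD/ShiLtJ samples, against 8.99 and 9.33 CPM in C57BL/6J samples (-0.87 ± 0.30, edgeR adjusted p = 0.202). All 5 genes had strains that did not overlap over the 8 libraries, which a choice by p favours, so this adds no support.

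**Figure D2:**
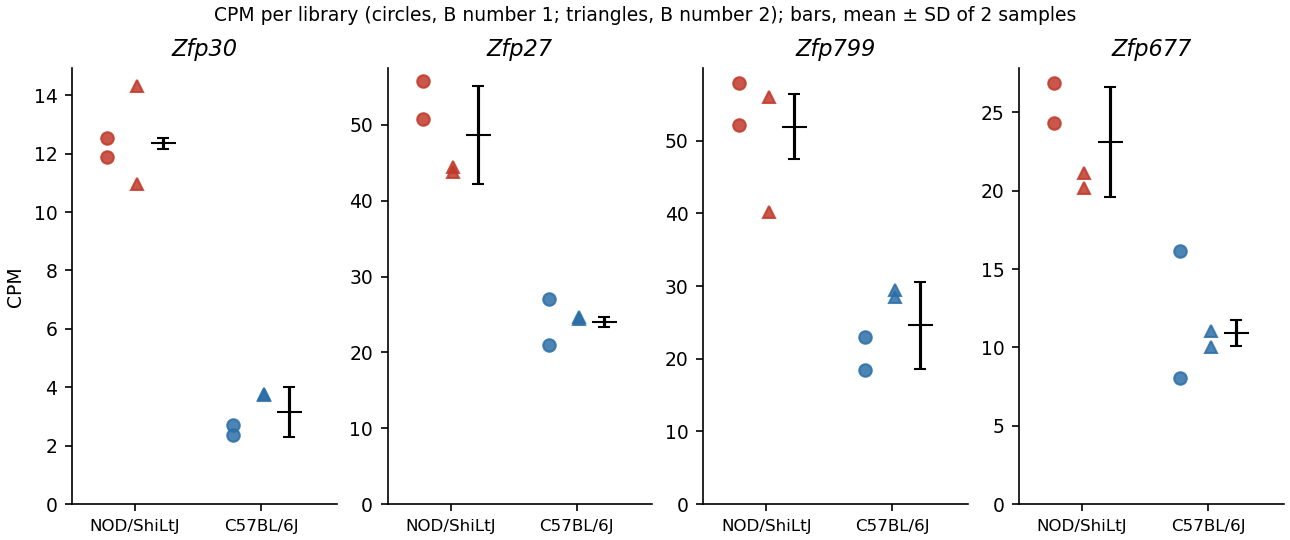
CPM (vertical axis, from 0) of Zfp30, Zfp27, Zfp799 and Zfp677 in every library, NOD/ShiLtJ left in red and C57BL/6J right in blue; circles are B number 1, triangles B number 2, and the black bars the mean ± SD of the 2 summed samples. The strains do not overlap in any of the 4 genes, which a choice by p favours, and the first 3 genes were called.

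The 3 called genes all have zinc finger gene neighbours. Zfp30 and Zfp27 lie in a run of 15 numbered Zfp genes on chromosome 7, each within 100 kb of the next, of which 12 are well expressed. The genes on either side of Zfp30 were not called. Zfp84 had 83.2 and 84.7 CPM in NOD/ShiLtJ samples, against 71.9 and 79.2 CPM in C57BL/6J samples (log2 fold change 0.11 ± 0.16), and Zfp790 had 39.6 and 40.1 CPM in NOD/ShiLtJ, against 41.0 and 42.8 CPM in C57BL/6J (-0.11 ± 0.17). Whether Zfp30 differed from these neighbours in its response was not tested. Next to Zfp27, Zfp420 and Zfp383 were below 5 CPM and were not called (0.97 ± 0.46 and 1.26 ± 0.46, edgeR adjusted p = 0.441 and 0.247), while Zfp74 had 37.1 and 32.2 CPM in NOD/ShiLtJ samples, against 22.4 and 25.1 CPM in C57BL/6J samples (0.50 ± 0.19, edgeR adjusted p = 0.283). Of the genes farther along, Zfp568, which in mouse embryos silences a placental transcript of Igf2, stood at 0.28 ± 0.23, Zfp14 at 0.84 ± 0.33, Zfp260 at -0.05 ± 0.16 and Zfp82, which is below 5 CPM, at -1.01 ± 0.49, all log2 fold changes that were not called.

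Zfp799 lies in a run of 8 genes on chromosome 17, of which 6 are well expressed. Its nearest neighbour on 1 side, Zfp811, was below 5 CPM on average and was called higher: it had 7.47 and 7.21 CPM in NOD/ShiLtJ samples, against 0.294 and 1.03 CPM in C57BL/6J samples (log2 fold change 3.43 ± 0.53, edgeR adjusted p = 0.00733). Next to Zfp811, Zfp871 had 88.0 and 104 CPM in NOD/ShiLtJ samples, against 86.0 and 118 CPM in C57BL/6J samples (-0.12 ± 0.18). On the other side of Zfp799, Zfp870, which is below 5 CPM, had a log2 fold change of -0.29 ± 0.51. Among the rest of the run, Zfp472, Zfp763 and Zfp563 had log2 fold changes between -0.10 and 0.17, and Zfp952 had 0.41 ± 0.21 (edgeR adjusted p = 0.495).

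Of 2 further runs that were looked at after their values were seen, neither held a called gene. One on chromosome 17, with Zfp677, has 15 genes, of which 12 are well expressed. All 12 had a positive log2 fold change, from 0.08 in Zfp229 to 1.03 in Zfp677, with a median of 0.28. The other, on chromosome 13 with Zfp458 and Zfp759, has 14 genes, of which 8 are well expressed, 6 with a positive and 2 with a negative log2 fold change. Over all 223 genes, 122 had another numbered Zfp gene within 100 kb, with a median log2 fold change of 0.15. Of these 122 genes, 3 were called (2.46%, against 3.68% of all tested genes). The other 101 had no such neighbour; 0 of them were called by edgeR or by DESeq2 (1 higher and 4 lower at an unadjusted p under 0.05), and their median was 0.07. The difference between these 2 sets was not tested.

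**Figure D3:**
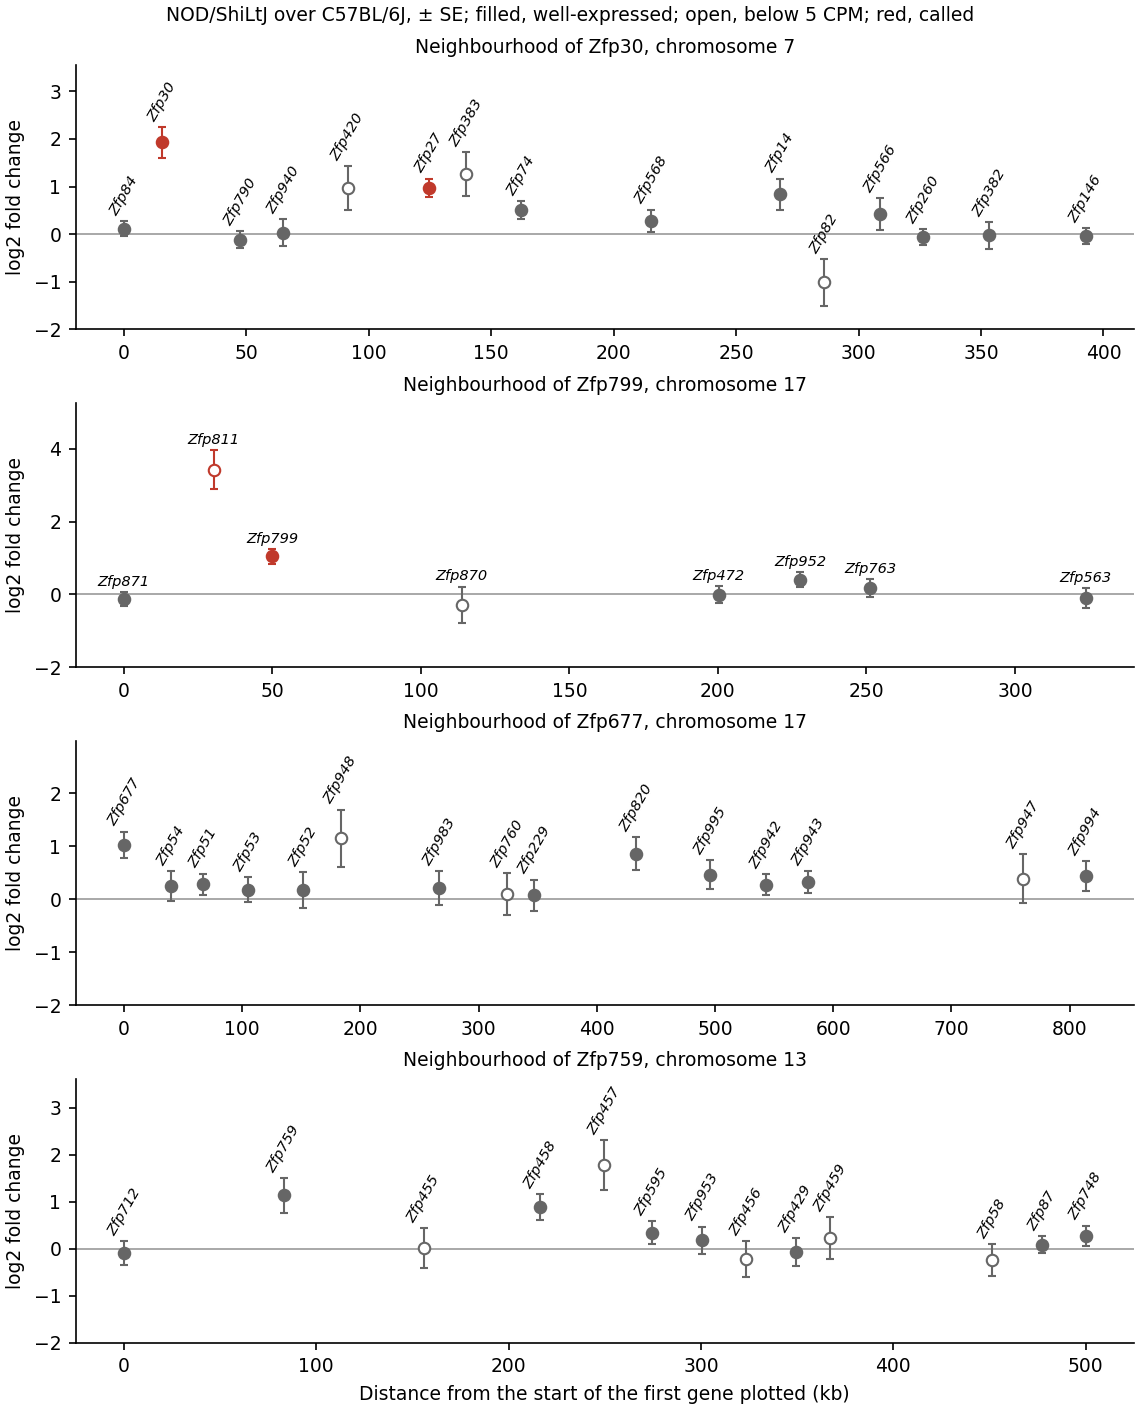
Log2 fold change ± SE (NOD/ShiLtJ over C57BL/6J, vertical axis) of the tested genes in 4 runs of neighbouring Zfp genes, by distance in kb from the start of the first gene plotted. Filled points are well expressed, open points are below 5 CPM and red points were called; Zfp30, Zfp27, Zfp799 and Zfp811 are red, with uncalled genes between and beside them.

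Neighbouring members of the zinc finger gene families gave the following values under the same test, as a description. Of the 113 numbered Zfp genes below 5 CPM outside the clusters, 74 could be tested; 3 were higher (Zfp811, Zfp937 and Zfp345) and 1 lower (Zfp951), and the median log2 fold change was 0.32. Of the 18 genes in the chromosome 4 cluster, 10 were tested, 4 were higher and 0 lower. Of the 11 in the chromosome 2 cluster, 5 were tested, 1 was higher and 1 lower. In these clusters, a median of 75.4% and of 88.7% of the 37-base stretches of a gene's transcripts also occurred in another gene, so reads there could be shared between copies. Among the 223 genes the median was 0.80% and the maximum 46.05%, and it was 0.10% in Zfp30, 0.0% in Zfp27 and 1.87% in Zfp799. Of the genes named Zfp, a number and letters, 22 were tested, 1 was higher and 0 lower by edgeR (1 higher and 3 lower at an unadjusted p under 0.05; 1 higher and 1 lower by DESeq2), with a median of 0.18. The Zscan and Zkscan genes, whose proteins carry a SCAN domain, had 0 of 17 tested genes called by edgeR or by DESeq2, with a median of 0.05 (0 at an unadjusted p under 0.05), and the Zbtb genes, whose proteins carry a BTB domain, likewise 0 of 33, with a median of 0.01 (0 higher and 2 lower at an unadjusted p under 0.05). No test of the difference between these families was made.

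**Figure D4:**
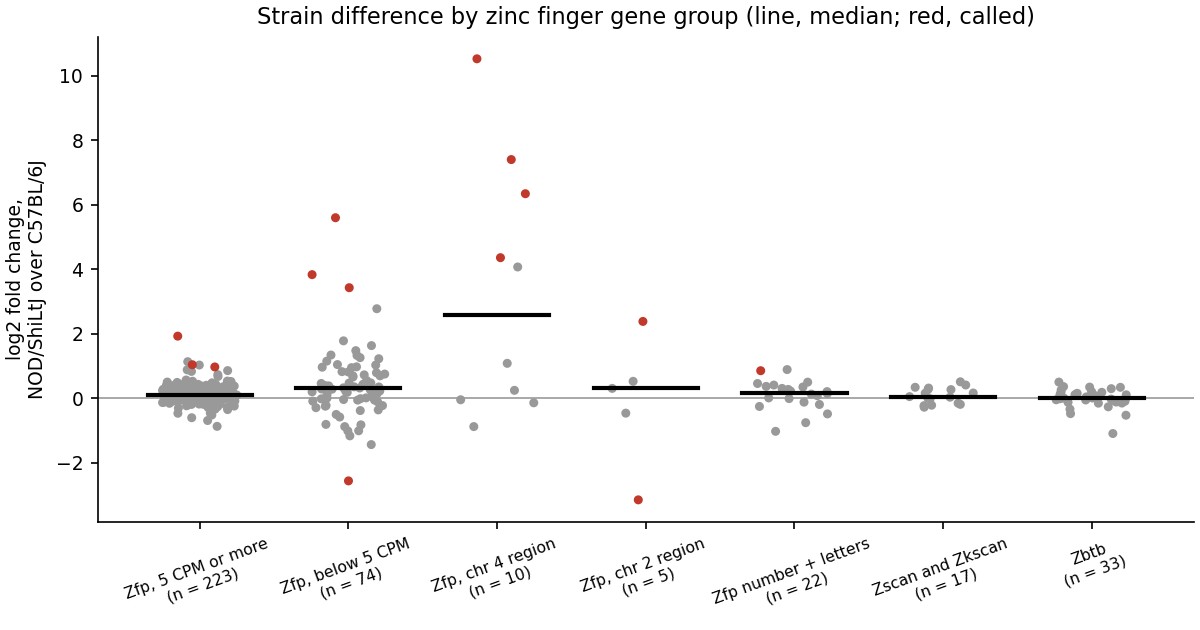
Log2 fold change (NOD/ShiLtJ over C57BL/6J, vertical axis) of every tested gene in 7 groups of zinc finger genes, with the median as a black line and called genes in red. The well-expressed genes lie between -0.87 and 1.93, and the clusters on chromosomes 4 and 2 spread more widely.

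Levels spanned a wide range. Mean CPM over the 8 libraries ran from 5.02 to 485, with a median of 30.7, and the summed CPM of the 223 genes was 11283 to 12468 in NOD/ShiLtJ libraries and 9601 to 12075 in C57BL/6J libraries, which overlap. The highest by CPM was Zfp292, which encodes a large DNA-binding protein, followed by Zfp644, Zfp207, Zfp638 and Zfp106. Per kb of merged exons, levels ran from 0.644 to 51.4 CPM per kb, with a median of 6.27. On that scale Zfp207, whose human counterpart helps chromosomes attach to the spindle, stood at 51.4 CPM per kb and Zfp292 at 48.6. They were followed by Zfp106, an RNA-binding protein, at 31.7, Zfp646, named for its level on this scale after the values were seen, at 28.4 and Zfp148, which binds GC-rich promoters, at 27.1 CPM per kb. Just inside the threshold of 5 CPM were Zfp467 (5.02), Zfp566 (5.28), Zfp932 (5.37) and Zfp52 (5.41), and just outside it Zfp975 (4.87), Zfp689 (4.76), Zfp938 (4.57) and Zfp58 (4.57 mean CPM). Of the 223 genes, 216 were at 5 CPM or more in each strain, of which 2 were higher and 0 lower; 6 reached 5 CPM through NOD/ShiLtJ alone, with Zfp30 among them, and 1, Zfp467, through C57BL/6J alone.

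Of 31 genes on a list of Zfp genes with a known or studied role, 0 were called by edgeR or by DESeq2, and 0 had an unadjusted p under 0.05 by edgeR. With 3.68% of all tested genes called, a count of 0 in a list of this size is near the background. The list is not complete, since Zfp30, which was called, and Zfp568 also have studied roles and are not on it. Zfp335, which is needed in mice for the maturation of T cells, had 99.2 and 94.7 CPM in NOD/ShiLtJ samples, against 74.97 and 110 CPM in C57BL/6J samples, and the strains overlapped (log2 fold change 0.03 ± 0.19). Zfp143, a promoter-binding activator, had 66.1 and 82.6 CPM in NOD/ShiLtJ, against 79.0 and 79.4 CPM in C57BL/6J (-0.14 ± 0.17), also overlapping. Zfp410, an activator of the chromatin remodeller gene Chd4, had 85.6 and 78.0 CPM in NOD/ShiLtJ, against 62.3 and 84.4 CPM in C57BL/6J (0.12 ± 0.18), and its strains overlapped as well. Zfp809, a KRAB protein that silences retroviruses in mouse embryonic stem cells, had 40.1 and 41.2 CPM in NOD/ShiLtJ samples, against 25.8 and 34.5 CPM in C57BL/6J samples. The strains did not overlap in Zfp809, and its log2 fold change of 0.40 ± 0.19 did not pass the test (edgeR adjusted p = 0.456). Zfp36, which promotes mRNA decay, had 64.8 and 81.2 CPM in NOD/ShiLtJ, against 87.5 and 79.2 CPM in C57BL/6J (-0.24 ± 0.18); its relatives Zfp36l1 (-0.48) and Zfp36l2 (0.46) were not called either, and Zfp36l3 was too low to be tested.

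The partners through which KRAB proteins silence chromatin were examined from a list of 24 genes, of which 23 were found and tested and 2810474O19Rik was not analysed here. None was called by edgeR or by DESeq2, with 8 positive and 15 negative log2 fold changes, a median of -0.09, and 1 higher and 1 lower at an unadjusted p under 0.05. With 3.68% of all tested genes called, a count of 0 in 23 genes is near the background. Trim28, the corepressor that KRAB boxes bind, averaged 217 ± 53.2 CPM in NOD/ShiLtJ samples and 232 ± 1.09 CPM in C57BL/6J samples (SD, n = 2 each), a log2 fold change of -0.14 ± 0.19. Setdb1, the histone H3 lysine 9 methyltransferase recruited by Trim28, averaged 63.3 ± 7.20 CPM in NOD/ShiLtJ samples and 81.0 ± 11.9 CPM in C57BL/6J samples (SD, n = 2 each). Its log2 fold change was -0.40 ± 0.17 (edgeR adjusted p = 0.373), and the strains overlapped. The largest difference of the list went the other way. Hdac1, named after its values were seen, averaged 203 ± 8.40 CPM in NOD/ShiLtJ samples and 133 ± 10.5 CPM in C57BL/6J samples (0.57 ± 0.17, edgeR adjusted p = 0.129). The libraries separated fully by strain in 2 of the 23 genes with NOD/ShiLtJ above (8.70%, against 9.43% of all tested genes) and in 0 with NOD/ShiLtJ below.

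Samples of the same strain also differed from each other. The median absolute log2 ratio was 0.22 between the NOD/ShiLtJ samples and 0.22 between the C57BL/6J samples, and the median absolute fitted strain difference was 0.16. With the sign kept, the median ratio of sample 1 over sample 2 was 0.13 in NOD/ShiLtJ, with 149 genes positive. In C57BL/6J that median was -0.19, with 52 genes positive. The median fitted strain difference was 0.11, with 155 genes positive. A ratio within a strain compares single samples on plain CPM. The fitted difference compares 2 samples per strain after further scaling and so varies less, and the sizes of these values cannot be ranked directly. Zfp367 and Zfp704, named after their values were seen, differed most within NOD/ShiLtJ. Zfp367 had 12.05 and 31.9 CPM in NOD/ShiLtJ samples 1 and 2, against 22.7 and 30.1 CPM in C57BL/6J samples. Zfp704 had 27.6 and 59.3 CPM in NOD/ShiLtJ samples, against 56.6 and 79.7 CPM in C57BL/6J samples, and was not called (log2 fold change -0.69 ± 0.37). In both genes the low value was NOD/ShiLtJ sample 1, the sample with the low cell cycle sum, and the part of that sample in their values was not tested. Without NOD/ShiLtJ sample 2, which leaves sample 1 alone for that strain, Zfp704 and Zfp367 were called lower, and so was Zfp219.

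**Figure D5:**
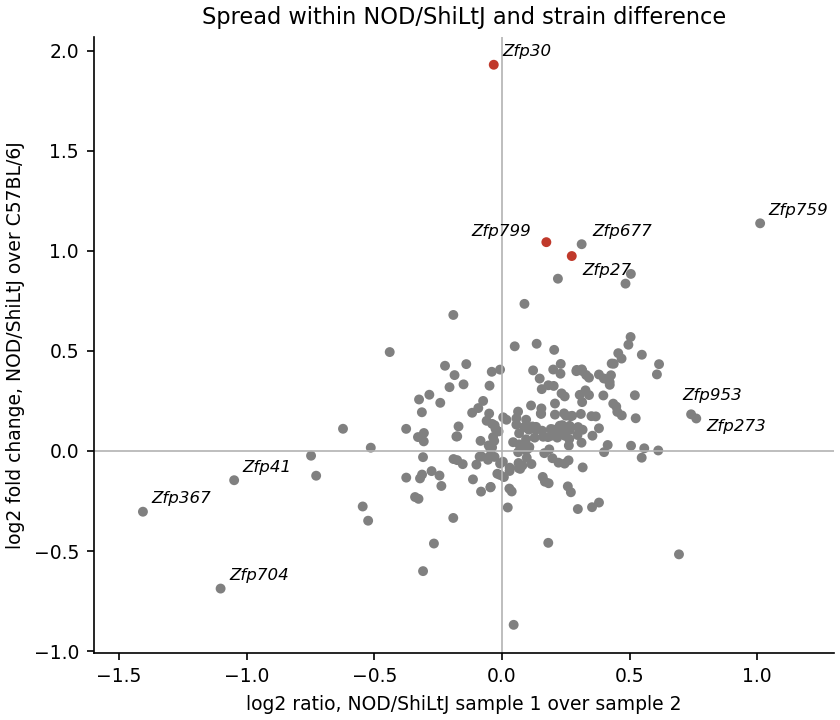
Log2 fold change between strains (NOD/ShiLtJ over C57BL/6J, vertical axis) against the log2 ratio of NOD/ShiLtJ sample 1 over sample 2 (horizontal axis), 1 point per zinc finger gene, called genes in red. Zfp30, Zfp27 and Zfp799 have NOD/ShiLtJ samples close together for the size of their strain difference, which a choice by p favours. Zfp367, Zfp704 and Zfp759 have NOD/ShiLtJ samples far apart. The spread of the C57BL/6J samples is not plotted.

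Position and sequence features of the 223 genes are given as a description, and fingers follow in large part from a choice by symbol. By chromosome, 56 lie on chromosome 7, 31 on chromosome 17, and 18 each on chromosomes 13 and 8. Translation of the GENCODE M21 coding sequences gave a median of 10 C2H2 fingers, with 36 in Zfp142, 30 in Zfp236, 27 in Zfp646 and 0 in 4 genes, Zfp36, Zfp330, Zfp703 and Zfp839. The proteins run from 76 residues (Zfp706) to 2698 residues (Zfp292), with a median of 594. A match to 1 of 3 letter patterns of the KRAB A box was present in 117 genes (52.5%), with a median log2 fold change of 0.17. Of these 117 genes, 3 were called (2.56%, against 3.68% of all tested genes). Of the 106 without a match, 0 were called by edgeR or by DESeq2, with a median of 0.06, and 1 was higher and 4 lower at an unadjusted p under 0.05. Numbered Zfp genes below 5 CPM, and those in each of the 2 clusters, had a median of 11 fingers. A KRAB match was present in 64.6% below 5 CPM, 100% in the chromosome 4 cluster and 90.9% in the chromosome 2 cluster. Fingers and KRAB boxes were thus not particular to the 223 genes. Across the 223 genes, which are not independent replicates and share the same libraries, finger number had a Spearman rho of 0.27 with the log2 fold change, and mean CPM one of -0.27. In 4 bins of mean CPM with about the same number of genes, from the lowest to the highest, the median log2 fold change was 0.17, 0.17, 0.09 and 0.07. Mean CPM was used by the rule. Through NOD/ShiLtJ alone, 6 genes reached 5 CPM (median log2 fold change 0.53), and 1 did so through C57BL/6J alone (-0.52). The cut itself can thus shape the values by level, which are a description.

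RefSeq promoter windows (GRCm38.p6, 250 bases before to 50 after a start) were found for 186 of the 223 genes, 227 windows in all. They held a median of 16 CpG dinucleotides, against 7 in all 32851 windows. On either strand, the letters TCTCGCG occurred in 6.17% of the windows of these genes and in 2.56% of all windows. The letters ACTACAA, part of the element bound by Zfp143, occurred in 5.29% of the windows of these genes and in 3.24% of all windows. GGGCGG, the GC box, occurred in 48.0% of theirs and in 35.7% of all, and TATAAA, the TATA box, in 6.17% of theirs and in 13.6% of all. Windows of neighbouring paralogs can share sequence, and these matches are a description. The 223 genes were chosen at 5 CPM or more, while all windows include those of genes at any level. No windows matched for level were compared, so these values cannot separate zinc finger genes from expressed genes in general. In the 4 windows of the 3 called genes, none of the first 3 of these motifs occurred, and TATAAA occurred in 1, that of Zfp799.

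The counting could also mix genes that overlap. The strand setting of the counting was not given in the sources used here, and the gene bodies of 97 of the 223 genes overlap another gene with counts. Zfp30 overlaps none, Zfp27 overlaps the microRNA gene Mir7668, at a mean of 0.0 CPM in NOD/ShiLtJ and 0.0413 CPM in C57BL/6J, and Zfp799 overlaps the antisense gene Gm26693, at 0.533 CPM in NOD/ShiLtJ and 0.497 CPM in C57BL/6J. Gene bodies include introns, and some of the overlapping genes lie on the same strand. From 0.69% to 2.38% of reads per library were set aside as ambiguous. How far the counts of genes on opposite strands are mixed cannot be told without the strand setting.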

How the data were processed

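The authors deposited 1 table per library of raw counts, whole numbers of reads per Ensembl gene, with no normalization. Per the submitters' processing notes, the tools were STAR 2.5.0a and HTSeq 0.6.1 on the build GRCm38; the sources used here do not give the annotation release or the strand setting. Counts were joined to GENCODE M21 (53360 of 53465 identifiers matched). Libraries of the same strain and B number were summed to 2 samples per strain. Genes kept by filterByExpr (17291) were normalized by TMM and compared with edgeR's robust quasi-likelihood test (edgeR 4.0.16, R 4.3.3; strain alone in the model, 2 residual degrees of freedom), two-sided, with Benjamini-Hochberg adjustment over all tested genes; a gene was called at an adjusted p under 0.05. Alternatives used DESeq2 1.42.0, other scalings, filters, libraries and replicates.

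CPM is a count over the reads in gene rows of that library or summed sample. The SE of a log2 fold change was derived as its absolute value over the square root of F from the quasi-likelihood test. Depth was 23.5 to 30.4 M reads in genes per NOD/ShiLtJ library and 8.53 to 15.7 M in those of C57BL/6J. From 39.98% to 59.1% of reads were assigned to no counted feature and were not used. Whether these reads lay outside gene bodies cannot be told from the counts. C2H2 fingers (C, 2 to 4 residues, C, 12 residues, H, 3 to 5 residues, H) were found in the translated reference coding sequence. Genes named with values were all called genes, the 5 highest by CPM, 4 on either side of the threshold, a list of genes with known roles, and neighbours of called genes; all other genes were named after their values were seen. The genes and lists were chosen with earlier results of these data known. Samples of the 2 strains share B numbers, and no label says what a number marks. NOD/ShiLtJ variants against the reference genome were not examined.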

Additional observations from a re-analysis of the deposited data

How the results depend on the processing

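With only 2 samples per strain and 2 residual degrees of freedom, the counts of calls moved with most choices, while the median log2 fold change of the zinc finger genes stayed between 0.03 and 0.17 in every alternative run. In place of 3 higher and 0 lower of 223, there were 5 higher and 1 lower without a filter on low counts, where 1188 of all genes were called in place of 637. Taking the 8 libraries as separate samples gave 8 higher and 4 lower and 1535 calls in all, and the libraries with T number 2 alone gave 1 higher and 342 in all. Leaving out 1 sample gave 0 to 6 higher, 0 to 3 lower and 256 to 1389 calls in all, with the lone sample of a strain assumed to vary like the others; 0 were higher without C57BL/6J sample 1 and 6 without NOD/ShiLtJ sample 2. At a threshold of 2 CPM, 266 genes qualified and 1 was lower. With the replicate block on the B number, 1 zinc finger gene (Zfp30) was higher and 513 genes were called in all; Zfp27 (edgeR adjusted p = 0.0543) and Zfp799 (0.0502) were not called there. No label says what the number marks, and the deviations of the samples with the same number had r = -0.123 over 17291 genes, so the numbers were not taken to pair the samples; pairing them crosswise, an alternative added after seeing the data, called 4 higher and 0 lower. RLE scaling called the same 3 genes, and DESeq2 called these 3 and Zfp677. Of 648 values of 54 named genes under 12 alternatives, 53 changed sign, in 24 genes with an absolute log2 fold change of at most 0.30 that were called under neither setting. The cause of these changes was not tested.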
